A study of Mus musculus with 8 samples.

Results

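Transcripts of 10 genes that the transcription factor p53 is known to control were followed in mouse hearts after doxorubicin. The genes were Cdkn1a, Mdm2, Ccng1, Sesn1, Perp, Trp53inp1, Bax, Bbc3, Phlda3 and Zmat3, and their members on the array were all probe sets whose platform annotation gave 1 of these symbols. That gave 18 of the 45037 probe sets, which covered 9 of the 10 genes, because no probe set carried the symbol Bax alone, and Bax was not analysed here. Of the 18 probe sets, 16 passed the filter on dim signals and were tested, so 9 of the 13008 tested genes were p53 targets of this set. The rule that picks the probe sets uses the symbol and no measured value. The 10 genes themselves were chosen with earlier results of these data known, so shares of members are descriptions.

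The hearts came from male mice aged 6 to 8 weeks that were labelled MT-/- (null for metallothionein I and II, small proteins that bind metals and scavenge radicals) or MT+/+ (the corresponding wild type). A mouse of either genotype received 1 intraperitoneal dose of 15 mg/kg doxorubicin (DOX, an anthracycline that poisons topoisomerase II and damages the heart) or the same volume of saline, and the heart was taken on day 4. In each genotype 2 biological replicates received DOX and 2 received saline, with 1 array per replicate, which made 4 groups. The labels give no mouse strain and do not say whether a replicate was 1 heart or a pool, so p-values measure the spread between these arrays.

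p53 is a transcription factor that DNA damage stabilizes. It binds paired copies of a short motif and switches on genes that halt the cell cycle, repair DNA, restrain growth signalling or start cell death. It also induces its own inhibitor, the ubiquitin ligase Mdm2, which closes a feedback loop. Doxorubicin breaks DNA and is a standard trigger of p53 in cultured cells, and p53 has been studied as a mediator of anthracycline damage in heart muscle.

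Promoter sequence was available from RefSeq (GRCm38.p6), as windows of 300 bases from 250 before to 50 after an annotated gene start, for 7 of the 10 genes in 11 windows. The 2 windows printed here are the member windows that held a p53 site, here meaning 2 adjoining 10-base half-sites of the p53 consensus with no gap, the core C and G of each kept and at most 1 mismatch in all. The half-site reads the same on both strands, and the site is in capitals. These are the genes that later in the text rose (Cdkn1a) and fell (Ccng1) after DOX.
Cdkn1a: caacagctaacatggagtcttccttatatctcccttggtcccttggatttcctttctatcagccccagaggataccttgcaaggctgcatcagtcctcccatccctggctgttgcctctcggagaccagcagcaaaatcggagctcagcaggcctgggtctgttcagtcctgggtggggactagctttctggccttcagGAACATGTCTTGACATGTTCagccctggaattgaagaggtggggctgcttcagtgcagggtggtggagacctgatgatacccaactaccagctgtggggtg
Ccng1: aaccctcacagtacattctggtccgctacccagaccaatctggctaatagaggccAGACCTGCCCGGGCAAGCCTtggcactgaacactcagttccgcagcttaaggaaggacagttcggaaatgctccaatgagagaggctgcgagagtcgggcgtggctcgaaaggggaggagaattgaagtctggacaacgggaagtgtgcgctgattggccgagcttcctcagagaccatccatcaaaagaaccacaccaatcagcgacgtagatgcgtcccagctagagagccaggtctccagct
The Cdkn1a window is chr17:29090729-29091028 on the plus strand, at the more upstream of its annotated starts, and its site spans positions -51 to -32 from that start. The Ccng1 window is chr11:40755237-40755536 on the minus strand, and its site spans positions -195 to -176. Both sites have 1 mismatch to the consensus. Such a site was found in 22 of all 32851 windows (0.067%), and an exact single half-site in 2745 windows (8.36%) and in 5 of the 11 member windows. A match is a description of letters and not of binding, and the definition of a site was set after the member sequences had been seen. Of the 22 genes with a site, 8 were named on the array and 7 were tested. After DOX, averaged over genotypes, 1 of the 7 rose (Cdkn1a), 1 fell (Ccng1) and 5 did not pass the test (Calhm2, Gtse1, Mthfd1, Rps27l and Sptbn4), with log2 differences from -0.34 to 0.03.

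Across the 8 arrays the median deposited intensity lay between 80 and 87.4, and after normalization the correlation between a pair of arrays was 0.976 to 0.984 inside a group and 0.924 to 0.985 across groups. All 10 cardiomyocyte markers were at or above the percentile 97.2 of every array. The probe set for Mt1 (1422557_s_at) read 12549 and 12849.8 on the arrays labelled MT-/- with DOX, 4667 and 5322 on those labelled MT-/- with saline, 6735 and 9285 in MT+/+ with DOX, and 3722 and 4034 in MT+/+ with saline. Mt2 was likewise present in every group. Averaged over treatments, Mt1 signal was higher on the arrays labelled MT-/- (log2 difference 0.50 ± 0.09, limma adjusted p = 0.0425). The sources used here do not say where these probe sets lie relative to the inactivating change, so the signal does not check the genotype, and groups are called by their labels throughout. The ratio of 3' to 5' actin signal, a measure of RNA integrity, lay between 0.913 and 1.18 on DOX arrays and between 1.14 and 1.24 on saline arrays. In each group it was higher on array 2 than on array 1. The same ratio for Gapdh did not separate the treatments, with 0.993 to 1.04 on DOX arrays and 0.984 to 1.05 on saline arrays. The part of RNA integrity in the results was not tested.

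The DOX comparison averaged over both genotypes split the 9 measured targets into 3 groups. Trp53inp1, Cdkn1a, Sesn1 and Perp rose, Ccng1 fell, and Mdm2, Bbc3, Phlda3 and Zmat3 did not pass the test. A gene counted as risen or fallen when the adjusted p of its brightest tested probe set was below 0.05, using limma's moderated test with Benjamini-Hochberg adjustment over 24751 probe sets. At this threshold 4 of the 9 members (44.4%) rose, against 6.98% of all tested genes, and 1 of 9 (11.1%) fell, against 7.81% of all tested genes. Because earlier results were known when the members were chosen, this contrast is no test of the set. The same 5 genes were those whose 4 DOX arrays and 4 saline arrays did not overlap, a property of 20.1% of all tested genes. The median log2 difference of the 9 members was 0.06, and that of all tested genes was -0.01.

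Cdkn1a encodes p21, the inhibitor of cyclin-dependent kinases through which p53 holds cells in G1. Its probe set 1424638_at had deposited intensities of 1285 and 2182 in MT-/- with DOX, against 423 and 434 in MT-/- with saline. In MT+/+ it had 752 and 1423 with DOX, against 565 and 534 with saline. All 4 DOX arrays lay above all 4 saline arrays, and the group mean was highest in MT-/- with DOX, next in MT+/+ with DOX and lowest in MT-/- with saline. The DOX groups of the genotypes overlapped, and no other neighbours in this order did. Averaged over genotypes Cdkn1a rose 2.59-fold (log2 difference 1.37 ± 0.21, SE from limma, 2 arrays per group, adjusted p = 0.00394). The dimmer probe set 1421679_a_at rose 1.65-fold (adjusted p = 0.0144), with 156 and 239 in MT-/- with DOX and 90.8 and 84.6 in MT-/- with saline. In MT+/+ it read 117 and 179.6 with DOX and 111 and 98.7 with saline (log2 difference 0.45 ± 0.21, limma adjusted p = 0.334).

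Trp53inp1 encodes a stress-induced nuclear protein that binds p53 and promotes its phosphorylation, and that also acts in autophagy. Probe set 1416926_at read 608 and 1632 in MT-/- with DOX, against 198 and 291 in MT-/- with saline. In MT+/+ it read 504 and 1253 with DOX, against 226 and 231 with saline. The DOX and saline arrays did not overlap, but the 2 DOX arrays of each genotype lay far apart. The gene rose 3.59-fold (log2 difference 1.84 ± 0.33, limma adjusted p = 0.0078), the highest fold among the 9 members and the one with the widest error. Its second probe set, 1416927_at, rose 1.47-fold (limma adjusted p = 0.0459).

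Sesn1 encodes sestrin 1, which restrains mTORC1 signalling and limits oxidative damage. Probe set 1433711_s_at read 1909.7 and 3159 in MT-/- with DOX, against 774 and 965 in MT-/- with saline. In MT+/+ it read 1599 and 2737 with DOX, against 949 and 943 with saline. Every DOX array lay above every saline array, and the DOX groups of the 2 genotypes overlapped. Sesn1 rose 2.41-fold (log2 difference 1.27 ± 0.19, limma adjusted p = 0.00404), and the other 2 tested probe sets rose 2.48-fold and 2.12-fold. The remaining probe set, 1444376_at, was below the filter and read between 46.7 and 82.9 on the 8 arrays.

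Perp encodes a tetraspan membrane protein of desmosomes that takes part in p53-dependent cell death. It read 2596 and 2819 in MT-/- with DOX, against 1161 and 1478 in MT-/- with saline, and 2152 and 1903 in MT+/+ with DOX, against 1059 and 1165 in MT+/+ with saline. The replicates were close and no array of 1 treatment reached the other. Perp rose 1.87-fold (log2 difference 0.90 ± 0.09, limma adjusted p = 0.000652), the smallest rise of the 4 with the smallest error. Perp is also an epithelial gene, and of 7 tested epithelial and mesothelial markers none rose or fell in this comparison, with a median log2 difference of -0.10. Their summed signal lay between 5666 and 7612 in MT-/- with DOX, 5196 and 6439.7 in MT-/- with saline, 5359 and 6533 in MT+/+ with DOX, and 4395 and 5667 in MT+/+ with saline. Dsp was the brightest of these markers. Whole hearts were measured, so the sum does not tell which cells gave this signal. The part of epithelial cells in the Perp values was not tested.

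Ccng1 encodes cyclin G1, which brings the phosphatase PP2A to Mdm2 and which p53 induces in other settings. In these hearts it fell after DOX. Probe set 1420827_a_at read 3321 and 3195 in MT-/- with DOX, against 5499 and 6166 in MT-/- with saline. In MT+/+ it read 3698 and 4906 with DOX, against 5705 and 7166 with saline. All DOX arrays lay below all saline arrays, with MT-/- with DOX lowest and not overlapping MT+/+ with DOX. The log2 difference was -0.72 ± 0.10 (1.64-fold lower, limma adjusted p = 0.00253). The other 2 probe sets of the gene, 1450016_at and 1450017_at, also fell, with log2 differences of -0.90 and -0.85 (limma adjusted p = 0.0045 and 0.00384).

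**Figure D1:**
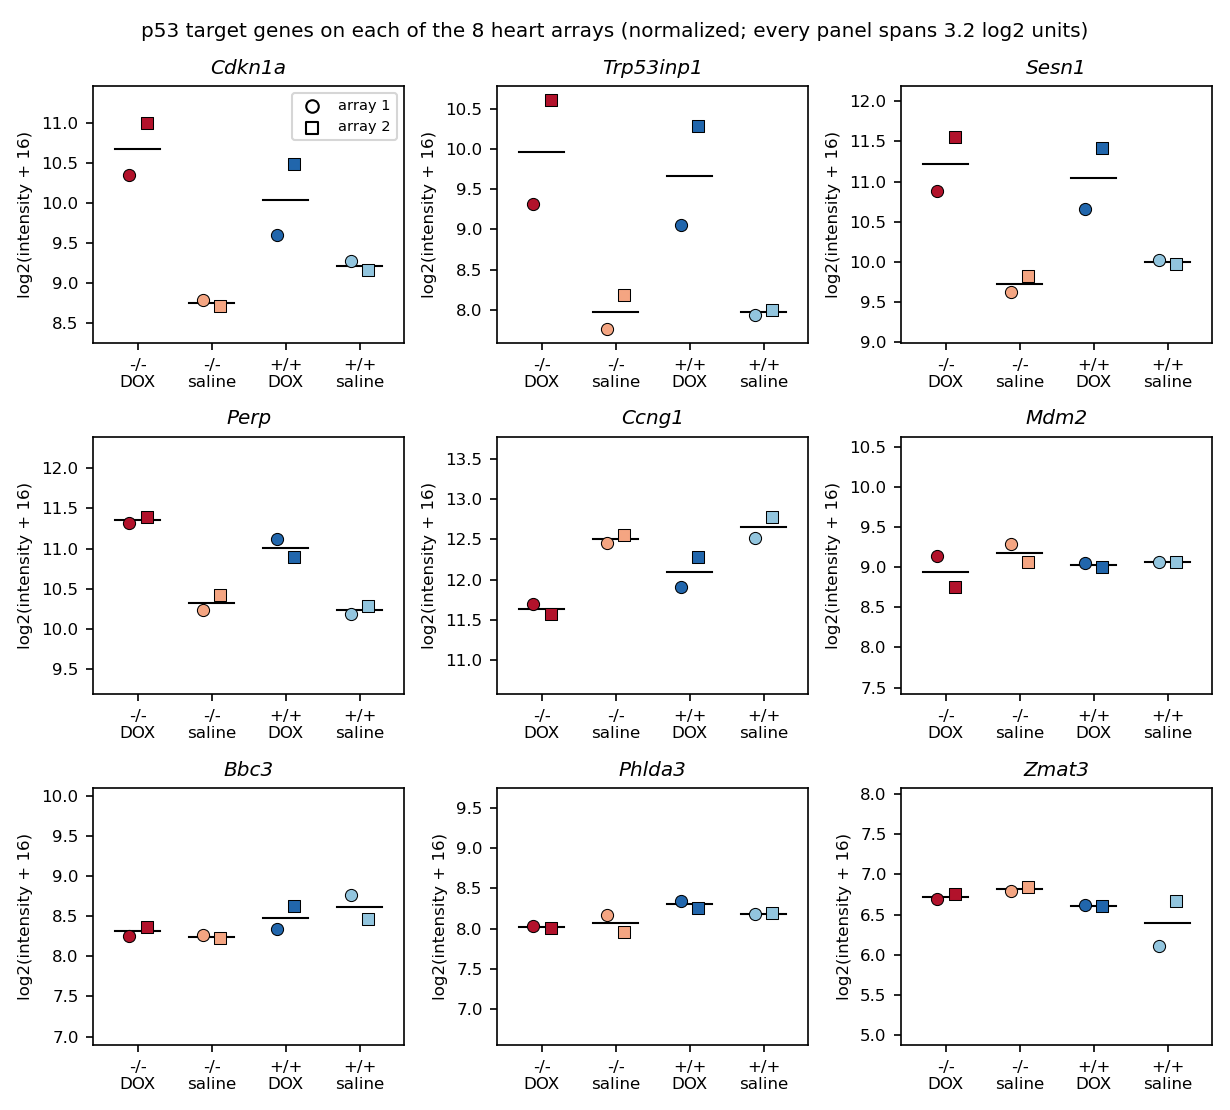
Normalized log2(intensity + 16) of the brightest tested probe set of each of the 9 measured p53 targets on the 8 arrays, with the DOX group left of the saline group in MT-/- (left) and in MT+/+ (right). Circles are array 1, squares array 2 and lines the mean of 2 arrays; Cdkn1a, Trp53inp1, Sesn1 and Perp are higher and Ccng1 lower on every DOX array than on any saline array, and the other 4 genes overlap.

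Mdm2, the ubiquitin ligase that degrades p53 and is itself a p53 target, read 545 and 429 in MT-/- with DOX, against 612 and 562 in MT-/- with saline. In MT+/+ it read 504 and 502 with DOX, against 490.0 and 497 with saline. After normalization the log2 difference averaged over genotypes was -0.13 ± 0.12, with a 95% interval from -0.40 to 0.13 (limma adjusted p = 0.526). In MT+/+ both deposited DOX values were the higher ones, while after normalization the log2 difference there was -0.04 ± 0.16. A second tested probe set gave -0.06 ± 0.16, and the remaining one, 1457929_at, was below the filter, between 34.6 and 47.1.

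Bbc3 encodes PUMA, a BH3-only protein that triggers apoptosis at mitochondria. It read 285 and 324 in MT-/- with DOX and 285 and 303 in MT-/- with saline, and 304 and 383 in MT+/+ with DOX and 399 and 324 in MT+/+ with saline. The treatments overlapped in both genotypes, and the log2 difference was -0.03 ± 0.11 (95% interval -0.29 to 0.22, limma adjusted p = 0.894). Phlda3, which encodes a repressor of Akt signalling, read 243 and 246 in MT-/- with DOX and 268 and 246 in MT-/- with saline. In MT+/+ it read 303 and 296 with DOX and 269.8 and 265 with saline. Its log2 difference was 0.04 ± 0.09 (95% interval -0.17 to 0.24, limma adjusted p = 0.86).

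Zmat3 encodes a zinc finger protein that binds RNA. It read 84.9 and 89.6 in MT-/- with DOX and 93.0 and 98.3 in MT-/- with saline, and 81.4 and 82.9 in MT+/+ with DOX and 56.0 and 86.4 in MT+/+ with saline. It was a dim probe set, between the percentiles 31.6 and 56.8 of the arrays, so a change in its transcript would be understated on this scale. The log2 difference was 0.06 ± 0.12 (95% interval -0.22 to 0.34, limma adjusted p = 0.818).

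Whole hearts were measured, so fewer cells of a type and less RNA per cell cannot be told apart. Between DOX and saline, averaged over genotypes, 7 of 10 fibroblast markers and 9 of 10 macrophage markers fell and none rose. The summed signal of the fibroblast markers was between 10943 and 11969.9 in MT-/- with DOX and between 18420.0 and 20256 in MT-/- with saline, and between 10297 and 11858 in MT+/+ with DOX and between 16694 and 17429 in MT+/+ with saline. That of the macrophage markers was between 6631 and 6834 in MT-/- with DOX and between 9804 and 10713 in MT-/- with saline, and between 5322 and 5998 in MT+/+ with DOX and between 10761 and 12230.2 in MT+/+ with saline. Of 10 cardiomyocyte markers 4 fell, with a median log2 difference of -0.10, and their summed signal was at most 120790.3 on DOX arrays and at least 123304 on saline arrays. Of 6 tested neutrophil markers 3 rose, and their sum was between 2814 and 3597 in MT-/- with DOX, against 639.8 to 714 in MT-/- with saline, and between 896 and 953 in MT+/+ with DOX, against 769.9 to 1459 in MT+/+ with saline. Among the other lists, 2 of 10 endothelial, 2 of 7 smooth muscle and pericyte and 2 of 5 red cell markers fell, 1 of 3 adipocyte markers rose, and neither of 2 lymphocyte markers passed. All marker counts stand beside 6.98% of all tested genes that rose and 7.81% that fell. Counts of 1 or 2 markers are not read as results about a cell type. The summed red cell markers lay between 346 and 404 on DOX arrays and between 1094 and 1818 on saline arrays. Of the 5 tested red cell markers 4 entered the test through saline arrays alone, both fallen ones among them. Nothing is therefore read from their count or sum. Of the 3 risen neutrophil markers 1 (Mmp8) entered through DOX arrays alone. No tested marker was at 0 on any array. The part of these shifts in the values of the p53 targets was not tested.

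Within the hearts labelled MT-/-, the same 5 genes passed the test. Cdkn1a rose 3.79-fold (log2 difference 1.92 ± 0.29, adjusted p = 0.00817), Trp53inp1 3.96-fold (1.99 ± 0.46, 0.0406), Sesn1 2.82-fold (1.5 ± 0.27, 0.0159) and Perp 2.05-fold (1.04 ± 0.13, 0.00348), all by limma. Ccng1 fell by 0.88 on the log2 scale (SE 0.14, limma adjusted p = 0.00943). These were 4 of 9 members against 2.76% of all genes that rose, and 1 of 9 against 3.98% of all genes that fell. The count rested on few arrays: it was 1 (Perp) when array 2 of MT-/- with DOX or either array of MT-/- with saline was left out. Array 2 of MT-/- with DOX held the highest Cdkn1a, Sesn1 and Trp53inp1 signals of the series. Without it the log2 differences were 1.59 for Cdkn1a, 1.15 for Sesn1 and 1.33 for Trp53inp1.

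Within MT+/+ hearts only Perp passed the test, with a rise of 1.71-fold (log2 difference 0.77 ± 0.13, limma adjusted p = 0.0221), against 1.24% of all genes that rose. Trp53inp1 had a log2 difference of 1.70 ± 0.46 (adjusted p = 0.101), Sesn1 1.04 ± 0.27 (0.0906), Cdkn1a 0.82 ± 0.29 (0.195) and Ccng1 -0.56 ± 0.14 (0.0781), all by limma. The DOX and saline arrays of MT+/+ did not overlap for 7 of the 9 members, these 4, Perp, Mdm2 and Phlda3, and for 46.5% of all genes. With DOX, 5 of the 7 lay higher and 2, Ccng1 and Mdm2, lower. For Mdm2 the gap was very small, with normalized log2 values of 9.05 and 9 against 9.06 and 9.06, and its deposited intensities had the opposite order. With the replicate number as a block, 4 of the 9 members passed in MT+/+, against 11.8% of all genes: Perp (adjusted p = 0.00428), Trp53inp1 (0.00566) and Sesn1 (0.00802) rose and Ccng1 (0.0126) fell, and Cdkn1a had an adjusted p of 0.0502. Leaving out any 1 of the 4 MT+/+ arrays left 0 members called in the fit without the block, and leaving out either MT-/- DOX array gave 2 (Perp and Trp53inp1). Cdkn1a in MT+/+ was 1.26 without array 1 and 0.38 without array 2 of the DOX group.

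**Figure D2:**
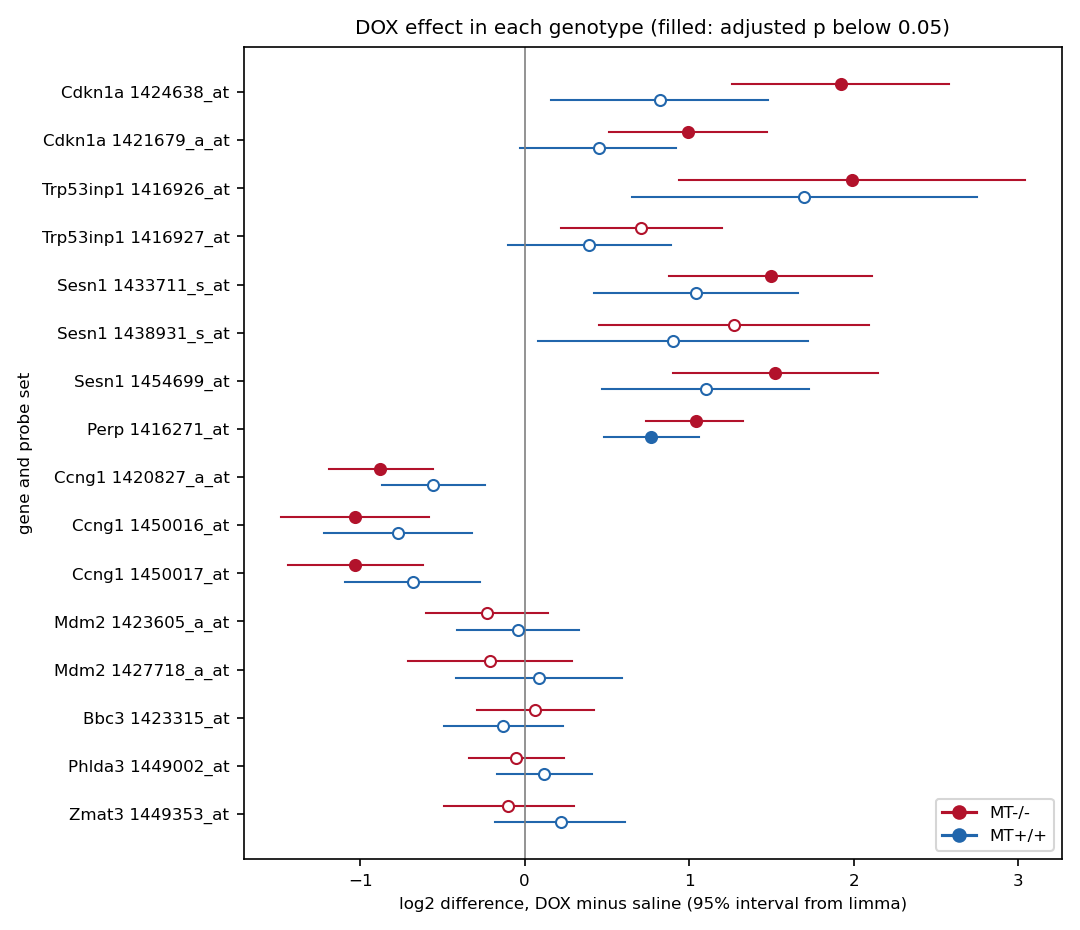
Log2 difference between DOX and saline for each of the 16 tested probe sets of the p53 targets, in MT-/- (red, upper of each pair) and MT+/+ (blue), with 95% intervals from limma on 2 arrays per group. Filled points passed adjusted p 0.05; every probe set of Cdkn1a, Trp53inp1, Sesn1 and Perp lies above 0 and every probe set of Ccng1 below 0 in both genotypes, and 1 point, Perp, is filled in MT+/+.

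The replicates of the DOX groups differed in a way shared by 3 of the 9 members, and by genes outside them. Array 2 read above array 1 for Trp53inp1 (2.46-fold in MT-/- and 2.37-fold in MT+/+), Cdkn1a (1.57-fold and 1.84-fold) and Sesn1 (1.6-fold and 1.68-fold), after normalization. In the saline groups the same ratios were 1.34 and 1.04 for Trp53inp1, 0.95 and 0.93 for Cdkn1a, and 1.16 and 0.98 for Sesn1, with MT-/- given before MT+/+. An excess of array 2 over array 1 by more than 0.5 on the log2 scale in both DOX groups was found for 3 of the 9 members and for 149 of the 13008 genes (1.15%). That threshold was chosen after these values were seen. Perp, Ccng1, Mdm2, Bbc3, Phlda3 and Zmat3 did not show it. The pattern was not particular to p53 targets. Of the FoxO targets listed further on, Pik3ip1 had deposited values of 618 and 1724 in MT-/- with DOX, for array 1 and array 2. In MT+/+ with DOX it had 657 and 1383. Foxo3 had 531 and 1210.0, and 669.7 and 1049, in the same order. In MT+/+ with DOX, Irs2 (155 and 127) and Bcl6 (427 and 371) of that list ran the other way.

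Taking each DOX array against the saline array of the same number gave, for Cdkn1a, 1.55 and 2.29 in MT-/- and 0.33 and 1.31 in MT+/+, as log2 differences for number 1 and number 2. For Trp53inp1 the differences were 1.55 and 2.43 in MT-/- and 1.11 and 2.30 in MT+/+. For Sesn1 they were 1.26 and 1.73 in MT-/- and 0.65 and 1.43 in MT+/+. In these 3 genes number 2 gave the higher value in each genotype. Perp ran the other way, with 1.10 and 0.98 in MT-/- and 0.93 and 0.61 in MT+/+, and Ccng1 was below 0 in all 4 pairs, between -0.99 and -0.50.

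**Figure D3:**
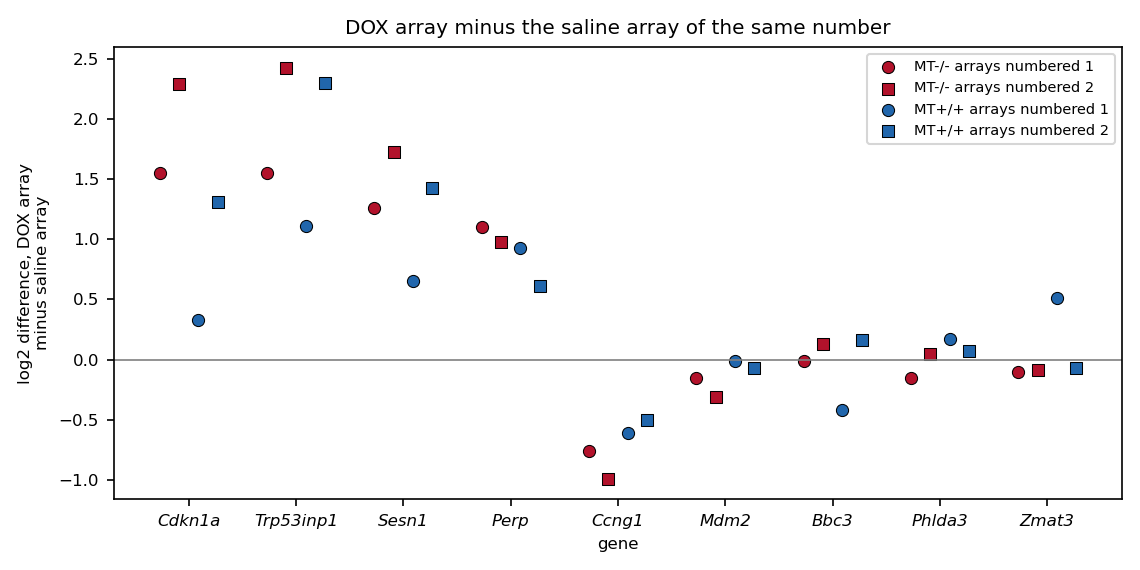
Log2 difference between each DOX array and the saline array with the same replicate number, for the 9 measured p53 targets (circles number 1, squares number 2, red MT-/-, blue MT+/+). Cdkn1a, Trp53inp1, Sesn1 and Perp lie above 0 in all 4 pairs and Ccng1 below 0 in all 4, and for Cdkn1a, Trp53inp1 and Sesn1 the square lies above the circle in both genotypes.

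Whether the DOX effect on the targets depended on genotype was asked with the interaction, in which the log2 difference between DOX and saline in MT+/+ is subtracted from that in MT-/-. No member passed, and no gene of the 13008 did (0%). By limma's unadjusted p, 1 member and 325 genes were below 0.05. That member was Cdkn1a, with a difference of effects of 1.10 ± 0.41 on the log2 scale (95% interval 0.16 to 2.04, unadjusted p = 0.026, adjusted p = 1). It was 0.66 without array 1 and 1.54 without array 2 of MT+/+ with DOX, and its second probe set gave 0.54 ± 0.30. The interactions of Sesn1 (0.46 ± 0.38), Trp53inp1 (0.28 ± 0.65), Perp (0.27 ± 0.18) and Ccng1 (-0.32 ± 0.19) had intervals that held 0, from -0.41 to 1.33 for Sesn1 and from -1.20 to 1.77 for Trp53inp1. These intervals are wide, and a fitted difference that missed the threshold does not show that the genotypes responded alike.

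Between genotypes no member passed the test in any of the 3 comparisons, where 0.884% of all genes passed averaged over treatments, 0.177% under saline and 0.292% after DOX. By limma's unadjusted p, 3, 2 and 2 members were below 0.05 in these comparisons, among 1722, 1125 and 1004 genes. Averaged over treatments these were Ccng1 (log2 difference -0.30 ± 0.10), Bbc3 (-0.27 ± 0.11) and Perp (0.22 ± 0.09). Under saline they were Zmat3 (0.42 ± 0.17) and Bbc3 (-0.37 ± 0.16), and 1 MT+/+ saline array read 56.0 for Zmat3, below the other 7 arrays. After DOX they were Ccng1 (-0.46 ± 0.14, adjusted p = 0.376) and Perp (0.35 ± 0.13, adjusted p = 0.544). All 3 Ccng1 probe sets read lower on both arrays of MT-/- with DOX than on either array of MT+/+ with DOX, with log2 differences from -0.55 to -0.46, and arrays of these groups did not overlap for 34.2% of all genes. Cdkn1a after DOX differed by 0.63 ± 0.29 (95% interval -0.03 to 1.30, adjusted p = 0.689) and under saline by -0.47 ± 0.29 (adjusted p = 0.686). With 1 array left out the difference after DOX ran from 0.19 (without array 1 of MT+/+ with DOX) to 1.07 (without array 2 of it).

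Of 18 listed regulators of p53, 16 were tested. In DOX over saline averaged over genotypes 2 of the 16 rose, against 6.98% of all tested genes, and 1 fell, against 7.81%, while 13 did not pass. The median log2 difference was 0.06. Chek2, a kinase that phosphorylates p53 after DNA breaks, fell: it read 56.5 and 58.9 in MT-/- with DOX, against 106 and 119.6 in MT-/- with saline, and 55.6 and 57.7 in MT+/+ with DOX, against 83.1 and 95.1 in MT+/+ with saline (log2 difference -0.64 ± 0.09, limma adjusted p = 0.00299). It reached the array median on 3 saline arrays and no DOX array, and so entered the test through saline alone. Usp7, which removes ubiquitin from Mdm2 and p53, rose by 0.46 ± 0.12 (adjusted p = 0.0394), and Kat5, an acetyltransferase of the DNA damage response, by 0.39 ± 0.09 (adjusted p = 0.022), both on the log2 scale by limma. Prkdc, the catalytic subunit of the DNA-dependent kinase, had 0.41 ± 0.12 (adjusted p = 0.0599). Mdm4, the partner of Mdm2, had -0.03 ± 0.15 (adjusted p = 0.945). Trp53 itself was not analysed here, because no probe set carried its symbol alone.

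Other known p53 targets were read from 3 lists, beside 6.98% of all tested genes that rose and 7.81% that fell. Of 14 tested genes of growth arrest and repair, 1 rose (the repair factor Xpc, log2 difference 0.43 ± 0.10), 2 fell (Hic1, -0.34 ± 0.09, and Ckap2, -0.32 ± 0.09) and 11 did not pass, with a median of 0.03. Ckap2 entered the test through 2 saline arrays alone. Btg2, an antiproliferative gene, read 453 and 1011 in MT-/- with DOX, against 288 and 747 in MT-/- with saline, and 951 and 763 in MT+/+ with DOX, against 308 and 407 in MT+/+ with saline. Its arrays overlapped in MT-/- (log2 difference averaged over genotypes 0.86 ± 0.30, limma adjusted p = 0.0937). Gadd45a, a growth arrest and repair gene, had 0.27 ± 0.23 (limma adjusted p = 0.517).

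Of 10 tested cell death targets, none rose, 3 fell and 7 did not pass, with a median of -0.18. Among all tested genes 6.98% rose and 7.81% fell. The 3 were Pycard, the inflammasome adaptor (log2 difference -0.76 ± 0.14, adjusted p = 0.00793), Trp53i11 (-0.43 ± 0.10, 0.0202) and Casp1, the inflammasome protease (-0.37 ± 0.08, 0.0199), all by limma. Casp1 reached the array median on the 4 saline arrays and on no DOX array, and so entered the test through saline alone. Pycard and Casp1 are expressed in macrophages, whose markers fell in the same comparison, and the part of this was not tested. Dram1, a lysosomal protein of autophagy, had -0.25 ± 0.11 (limma adjusted p = 0.171). The death receptor gene Fas had 0.08 ± 0.13 and the nuclease gene Aen 0.01 ± 0.10 (limma adjusted p = 0.77 and 0.96). Pmaip1, which encodes NOXA, was below the filter.

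Of 11 tested redox and metabolic targets, 2 rose, 2 fell and 7 did not pass, with a median of 0.01. The shares of all tested genes were 6.98% risen and 7.81% fallen. Ephx1, a microsomal epoxide hydrolase, read 1017 and 1224 in MT-/- with DOX, against 412 and 490.3 in MT-/- with saline, and 939.8 and 1009 in MT+/+ with DOX, against 366 and 335 in MT+/+ with saline. It rose 2.52-fold (limma adjusted p = 0.000185) and passed in each genotype alone (adjusted p = 0.00179 in MT-/- and 0.005 in MT+/+). Ddit4, an inhibitor of mTORC1 like the sestrins, rose 2.16-fold (limma adjusted p = 0.0018). It read 1896 and 2836 in MT-/- with DOX, against 772 and 810.4 in MT-/- with saline, and 1596 and 1995 in MT+/+ with DOX, against 925 and 1156 in MT+/+ with saline. Gpx1, a glutathione peroxidase, fell by 0.65 and Pltp, a lipid transfer protein, by 1.01 on the log2 scale (limma adjusted p = 0.00232 and 0.00409). Sesn2, the close relative of Sesn1, had 0.14 ± 0.09 (limma adjusted p = 0.364).

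Genes of the cell cycle that p21 is known to repress through the DREAM complex were also read, and 8 of 14 were tested. Of these 8, 4 (Cdk1, Ccna2, Mcm5 and Mki67) reached the array median on saline arrays alone, so that they could enter the test only where saline was higher, and nothing is read from a count over this list. Cdk1, the mitotic kinase, read 38.9 and 31.9 in MT-/- with DOX, against 151 and 84.9 in MT-/- with saline, and 42.4 and 35.5 in MT+/+ with DOX, against 85.5 and 129.8 in MT+/+ with saline. Its log2 difference was -1.23 ± 0.19, that of Ccna2, a cyclin of S phase, -0.85 ± 0.13, and that of Mki67, a proliferation marker, -0.42 ± 0.11. Mcm6, a subunit of the replicative helicase, reached the median on 2 DOX and 4 saline arrays and fell (-0.73 ± 0.10, limma adjusted p = 0.00247). The other 3 tested genes, Bub1b, Cdc20 and Foxm1, reached it on arrays of both treatments and had log2 differences from -0.06 to -0.02. The fall of fibroblast and macrophage markers described above ran beside these values, and its part was not tested.

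Cdkn1a and Sesn1 are also known as targets of FoxO factors, and Cdkn1a of the glucocorticoid receptor, so genes of both programs were counted. Of 15 FoxO targets 8 rose, none fell and 7 did not pass, with a median log2 difference of 0.79. Among them Bnip3, a mitophagy receptor, rose 2.63-fold (limma adjusted p = 0.000528) and Klf15, a metabolic transcription factor, 2.84-fold (adjusted p = 0.0067). Gabarapl1, an autophagosome protein, rose 2.13-fold and Cdkn1b, the kinase inhibitor p27, 1.46-fold (limma adjusted p = 0.015 and 0.0261). Of 13 glucocorticoid-induced genes 9 rose, none fell and 4 did not pass, with a median of 1.18. They included Fkbp5, a cochaperone of the glucocorticoid receptor, which read 1292 and 2036 in MT-/- with DOX, against 239 and 235 in MT-/- with saline, and 663 and 1186 in MT+/+ with DOX, against 235 and 261 in MT+/+ with saline. Per1, a clock gene, rose 2.28-fold, Lcn2, an iron-binding acute phase protein, 5.82-fold, and Mt1 2.27-fold (limma adjusted p = 0.002, 0.000192 and 0.000192). Mt1 and Mt2 are both among the 9 that rose, and they are the genes that the label MT-/- calls null. Where their probe sets lie relative to the inactivating change is not known here. Lcn2 read 1737 and 1912 in MT-/- with DOX, against 88.9 and 116 in MT-/- with saline. In MT+/+ it read 208 and 398 with DOX, against 104 and 139 with saline. Its averaged fold thus joins a large rise in MT-/- and a much smaller one in MT+/+. The shares that rose in these lists stand against 6.98% of all tested genes. Both lists were chosen with earlier results of these data known, so this contrast is a description and not a test. Whether any of these programs has a part in the values of Cdkn1a or Sesn1 was not tested.

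**Figure D4:**
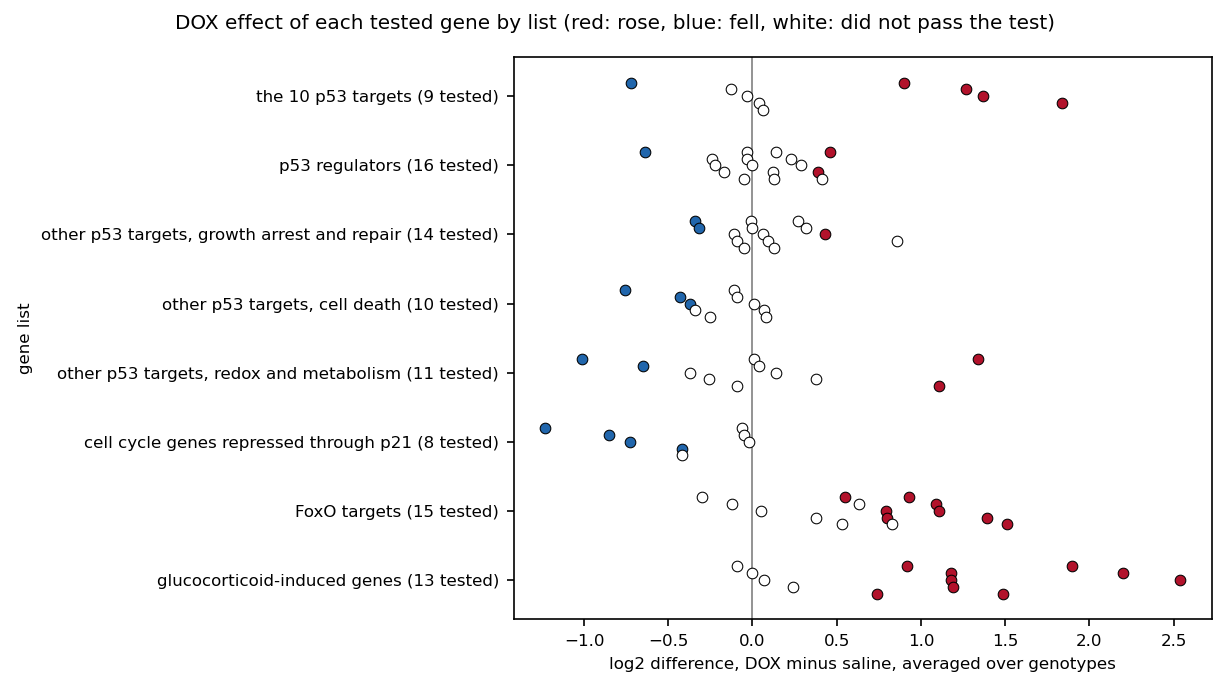
Log2 difference between DOX and saline, averaged over genotypes, of each of the 9 measured p53 targets and of each tested gene of 7 related lists, 1 point per gene, red where it rose, blue where it fell and white where it did not pass adjusted p 0.05 by limma. The p53 targets have 4 red points, 1 blue and 4 near 0, the FoxO and glucocorticoid lists hold 8 and 9 red points and no blue ones, and 4 of the 8 cell cycle genes entered the test through saline arrays alone, so the colours of that list are not counted.

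The members were also compared with each other and with all genes by their profile over the 8 arrays. The measure was the root mean square difference of mean-centred log2 values, which gives a description with no test. The values were centred and not scaled, so the size of a change counts as well as its shape. Among the members that passed the DOX test, Cdkn1a and Sesn1 were the closest pair, at 0.20, and Ccng1 and Trp53inp1 the most distant, at 1.38. The 3 genes nearest to Cdkn1a were Bcl2l1, an inhibitor of apoptosis (0.19), Sesn1 (0.20) and Glul, glutamine synthetase (0.21). The 3 nearest to Sesn1 were Bcl2l1 (0.10), Retreg1, a receptor for turnover of the endoplasmic reticulum (0.14), and Aox1, aldehyde oxidase (0.17). Bcl2l1 read 614 and 1329 in MT-/- with DOX, against 281 and 331 in MT-/- with saline, and 538 and 1022 in MT+/+ with DOX, against 363 and 373 in MT+/+ with saline. Array 2 was thus the higher of the DOX arrays for it too. The 3 nearest to Ccng1 were Tstd3 (0.09), 2700097O09Rik (0.10) and Qrsl1 (0.10), with DOX differences between -0.77 and -0.63 on the log2 scale.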

How the data were processed

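Total RNA from mouse heart, on 8 arrays, 2 in each of 4 groups given by the labels, was measured on one-colour Affymetrix arrays. The deposited values are 1 linear intensity per probe set and array, made with GCOS 1.4 per the submitters' processing notes. The sources used here do not give the signal algorithm, the scaling target or detection calls. The number of arrays, 2 per group, limits the precision. Of 45101 probe sets, 64 controls were left out. Symbols came from the platform annotation (34945 probe sets with 1 symbol, 932 with several, 9160 with none), and all 34741 that matched RefSeq by gene number kept their symbol.

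The deposited intensities were quantile-normalized, and log2(intensity + 16) was computed from the normalized values, so fold changes of dim probe sets are understated. Probe sets at or above the array median on at least 2 arrays were tested (24751). limma 3.58.1 in R 4.3.3 fitted 4 group means (lmFit, contrasts, eBayes with a trend, 4 residual and 4.66 prior degrees of freedom) for 7 comparisons, with two-sided p-values adjusted by Benjamini-Hochberg over all tested probe sets at a threshold of 0.05. No exact permutation test was run. In the comparisons of 2 arrays against 2 the smallest p it allows is 0.333, a limit that does not hold for the averaged comparisons. The brightest tested probe set stood for a gene. The named genes are all members, up to 4 genes with the smallest p and some fixed genes of each list, and the 3 genes nearest to Cdkn1a, Sesn1 and Ccng1. The code was tested on simulated data.

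The differences between replicates 1 and 2 correlated between groups at 0.36 to 0.542 over probe sets in all 6 pairs of groups. An alternative fit therefore took the numbers as pairing the arrays, from the data and not from a statement in the labels. The main fit had no replicate block, so its p-values and calls do not use this pairing. The members and lists were chosen with earlier results of these data known.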

Additional observations from a re-analysis of the deposited data

How the results depend on the processing

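The count of members that passed for DOX averaged over genotypes was 5 under all 17 alternatives, and the counts for the genotype comparisons and the interaction were 0 under each alternative run. For DOX in MT+/+ the count was 4 with the replicate block and 2 with the mean of a gene's probe sets, against 1, and it lay between 0 and 2 with 1 array left out. For DOX in MT-/- it lay between 1 and 5 with 1 array left out. The replicate block changed no other call among the members. With it 6702 probe sets were called for DOX averaged, against 3433 without it, 4188 against 1538 in MT-/-, and 2740 against 613 in MT+/+. For genotype averaged, under saline and after DOX these counts were 1202 against 224, 209 against 46 and 383 against 70, and for the interaction 1 against 0. With 1 array left out and no block, the probe sets called ran from 1713 to 3829 for DOX averaged, 383 to 1994 in MT-/- and 46 to 771 in MT+/+. For genotype averaged, under saline and after DOX they ran from 88 to 194, 15 to 50 and 23 to 62, and for the interaction from 0 to 1. With the stricter filter, at or above the median on every array, the 3 genotype counts were 133, 11 and 38, and Zmat3 was not tested. When the fit held the arrays of the compared groups alone, 948 and 36 probe sets were called for DOX in MT-/- and genotype after DOX. That fit could differ only in the 4 comparisons of 2 groups.

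No difference that changed sign was called. With the deposited scaling, Mdm2 for DOX in MT+/+ was 0.03 and Sesn1 between genotypes averaged 0.05. With median centring these were 0.06 and 0.10, and Bbc3 for DOX averaged was 0.01. With the mean of probe sets, Mdm2 for DOX in MT+/+ was 0.02, and Trp53inp1 between genotypes was -0.02 averaged and -0.17 under saline. Trp53inp1 in MT-/- had an adjusted p of 0.0506 with median centring. With 1 array left out, the log2 differences for DOX averaged ran from -0.11 to 0.04 for Bbc3, -0.02 to 0.09 for Phlda3 and -0.08 to 0.20 for Zmat3. For DOX in MT+/+ they ran from -0.28 to 0.02 for Bbc3 and -0.06 to 0.50 for Zmat3, and in MT-/- from -0.15 to 0.06 for Phlda3. Between genotypes averaged they ran from -0.14 to 0.30 for Cdkn1a, -0.08 to 0.12 for Mdm2, -0.23 to 0.14 for Sesn1 and -0.18 to 0.47 for Trp53inp1. Under saline they ran from -0.01 to 0.18 for Perp and -0.20 to 0.22 for Trp53inp1. After DOX they ran from -0.27 to 0.12 for Mdm2, -0.19 to 0.56 for Sesn1 and -0.36 to 0.94 for Trp53inp1. For the interaction they ran from -0.38 to 0.01 for Mdm2 and -0.37 to 0.93 for Trp53inp1. The cause was not tested. With 1 array left out, the lone array of a group is assumed to vary like the other groups. Dim probe sets, such as that of Zmat3, limit what can be seen.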
